A study of Mus musculus with 12 samples.

Results

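Gene expression in immature Ezh2-deficient dendritic cells was set against that in immature wild type dendritic cells on 6 of the 12 arrays of the series, 3 for each genotype. The arrays were chosen by their titles, which give genotype, the untreated state and a replicate number. Cells were grown from bone marrow of mice on a C57/B6 background. The Ezh2-deficient cells, labelled EZH2 KO, came from mice carrying floxed Ezh2 alleles with the Mx-cre transgene (Ezh2f/f;Mx-cre). The wild type cells carried the same floxed alleles without the transgene (Ezh2f/f). Both genotypes were cultured with GM-CSF at 20 ng/ml and IL-4 at 10 ng/ml, were washed on day 2 and went on in GM-CSF alone at 10 ng/ml, with a total culture of 6 or 7 days. No LPS was given to immature cells. The remaining 6 arrays hold the same genotypes after LPS at 100 ng/ml overnight, with serum withdrawal for 6 hours in some experiments. Mx-cre drives the recombinase from an interferon-inducible promoter, so the deletion depends on induction and can be incomplete. The labels do not say whether the replicates were separate mice, cultures or RNA preparations, so each p-value reflects the spread between the samples at hand, which may be technical.

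Ezh2 is the methyltransferase of Polycomb repressive complex 2 (PRC2). The complex methylates lysine 27 of histone H3 and keeps developmental and cell cycle inhibitor genes silent together with Polycomb repressive complex 1 (PRC1). The Cdkn2a locus, which encodes the p16Ink4a and p19Arf proteins that halt the cell cycle, is a classic PRC2 target in many cell types. The series title places Ezh2 in cell adhesion and migration through methylation of talin, a cytoplasmic link between integrins and actin.

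Each array detected 17892 to 19611 of 45281 probes, with a median raw intensity of 108 to 119. Values are given as log2 intensities after background correction and quantile normalization, and differences as Ezh2-deficient minus wild type on that log2 scale. The arrays numbered 3 are described apart, because those labelled with that number ran against numbers 1 and 2 at Cdkn2a and Igf2bp3, and the 2 labelled wild type also at Il6. The comparison therefore rests on 2 Ezh2-deficient and 2 wild type arrays. The values of those 3 genes decided which arrays entered, so their p-values are no independent support. The dendritic cell label was checked on 26 marker genes, of which 24 were measured and Flt3 and Xcr1 were not detected on the 4 arrays. Itgax, which encodes the surface integrin CD11c, was at 9.19 and 9.15 on the Ezh2-deficient arrays and at 9.13 and 9.16 on the wild type arrays. The MHC class II chain H2-Ab1 lay between 15.69 and 15.86 on all 4. The macrophage markers Adgre1 (12.36 and 12.78 in Ezh2-deficient cells, 12.34 and 12.63 in wild type cells) and Csf1r (12.86 and 12.77 in Ezh2-deficient cells, 13.10 and 12.83 in wild type cells) were also bright.

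The targeted gene was read by 3 probes. Probe ILMN_1234171 gave 9.62 and 9.39 in Ezh2-deficient cells and 9.78 and 9.57 in wild type cells, a difference of -0.17 (SE 0.37). Probe ILMN_2988572 gave 4.96 and 5.06 in Ezh2-deficient cells, where it was not detected on either array, and 6.58 and 6.03 in wild type cells, where it was detected on both. The groups did not overlap at the second probe, but its difference of -1.29 (SE 0.28) had an adjusted p of 0.768 over all 21049 detected probes and of 0.251 with the replicate number as a block (limma). In mature cells it was detected on all 4 arrays numbered 1 and 2, at 6.10 and 6.61 in Ezh2-deficient and at 6.90 and 7.03 in wild type cells. Among the arrays labelled number 3 it was at 5.98 (Ezh2-deficient immature), 6.56 (wild type immature) and 7.19 (Ezh2-deficient mature), and was not detected on that labelled wild type mature (5.14). Probe ILMN_2606429 was detected on none of the 12 arrays. The exon that each probe reads was not analysed here, so a probe outside the deleted part checks nothing about the deletion.

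Of 10908 genes tested, 3 rose and 0 fell in Ezh2-deficient immature cells at an adjusted p under 0.05 (limma, 8 arrays of numbers 1 and 2, 0.0275% of genes called). At an unadjusted p under 0.05 there were 333 genes (3.05%), of which 167 were higher (1.53%) and 166 lower (1.52%). With the replicate number as a block, 16 genes were called, 0.147% of those tested, of which 6 were higher (0.055%) and 10 lower (0.0917%). With so few calls over all genes, a gene list without a called gene says little about its members. The 3 genes called without the block were Cd3g, Cdkn2a and Bmpr1a. Of these, Cdkn2a helped decide which arrays entered, so its call is no independent support. The block added Igf2bp3, Ppp1r1a and Retreg1 among the higher genes, and Cbln1, Thy1, C1qa, Saa3, Ripk4, Ndrg2, Ly6c1, Fcmr, Scarf1 and Gstm2 among the lower ones. With all 12 arrays taken as labelled, 0 genes were called and 67 (0.614%) had an unadjusted p under 0.05. A fit of the 4 immature arrays alone called 5 genes (0.0458%). Leaving out any of the 4 immature arrays also left 0 genes called, with 202 to 309 at an unadjusted p under 0.05 (limma). Without background correction the differences of 8 of the 16 called genes were smaller by over 1.5 times, among them C1qa (-1.14), Thy1 (-1.61), Ripk4 (-0.98), Ndrg2 (-1.05) and Scarf1 (-0.83), and all 16 kept their sign.

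**Figure D1:**
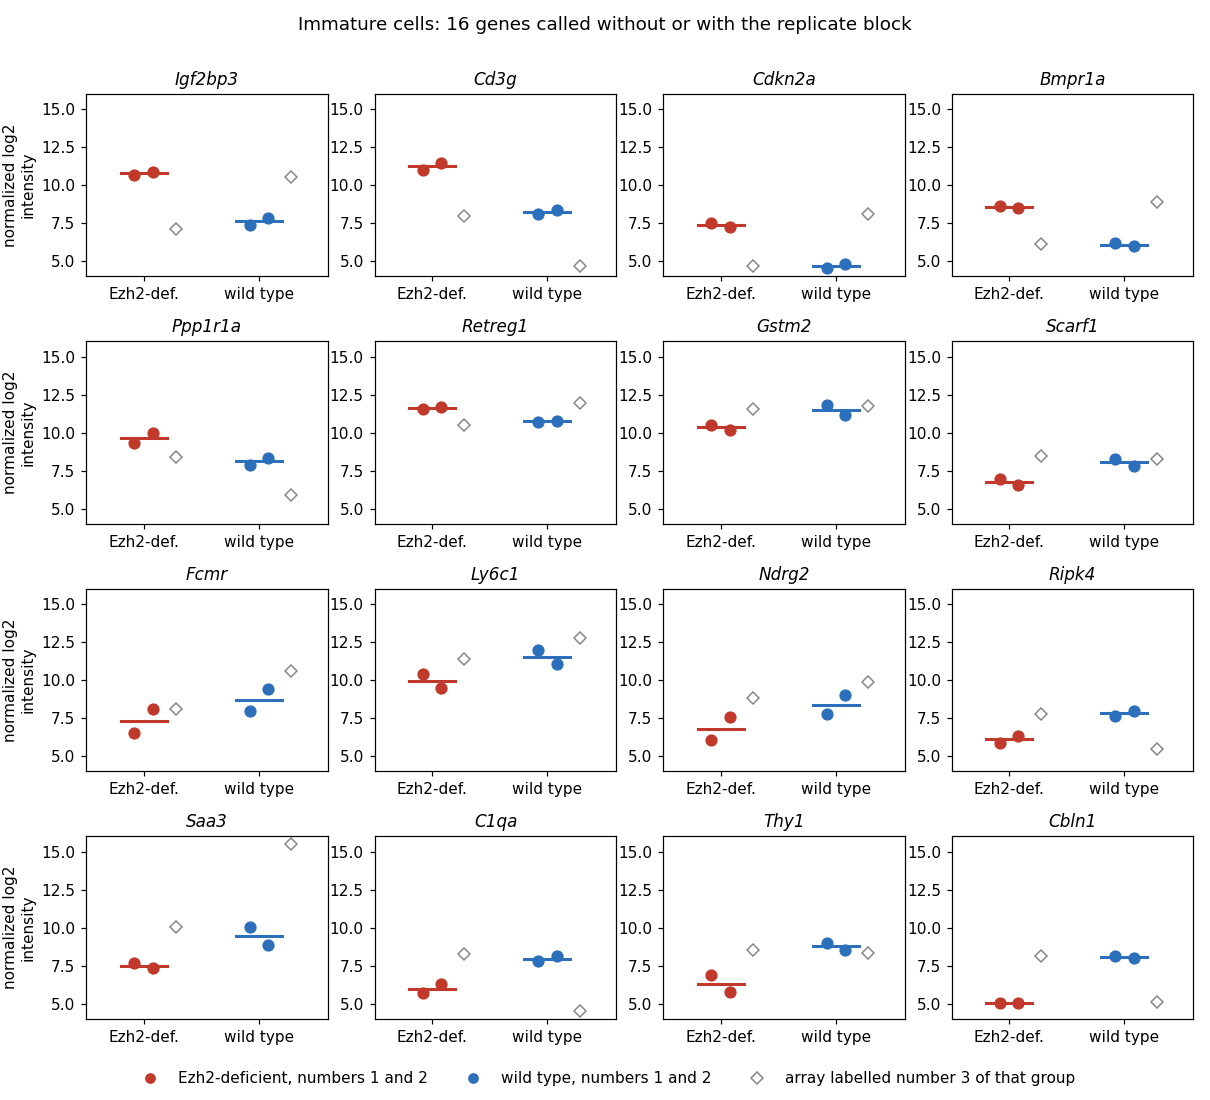
Normalized log2 intensity (vertical axis) of the 16 genes called without or with the replicate block, in Ezh2-deficient and wild type immature cells. Filled points are arrays 1 and 2 of each group, bars are their means, and open diamonds are the arrays labelled number 3, which the fit did not use. The filled points of the 2 genotypes do not overlap for 15 of the 16 genes, and for Fcmr they do (8.08 on an Ezh2-deficient array, 7.95 on a wild type array).

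Among the cell cycle inhibitors, Cdkn2a was at 7.49 and 7.28 in Ezh2-deficient cells and at 4.55 and 4.84 in wild type cells. It was detected on both Ezh2-deficient arrays and on neither wild type array, so the groups did not overlap and the wild type level is only a bound. The fitted difference was 2.69 (SE 0.23, adjusted p = 0.0177, limma). After background correction the level was at least 4.68-fold higher in Ezh2-deficient cells, a bound that holds on that scale only. Without background correction the difference was 1.25. Cdkn2a helped decide which arrays entered, so its p-value is no independent support. With all 12 arrays as labelled its difference was 0.67. The other 2 detected Cdkn2a probes gave 1.35 and 0.40, so the probes differ in size and not in direction.

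Of the other 7 CDK inhibitors, none was called, beside 0.0275% of all genes without the block and 0.147% with it. Cdkn2b, which encodes p15Ink4b from the same locus, was at 9.52 and 9.56 in Ezh2-deficient cells and at 9.04 and 9.12 in wild type cells, a difference of 0.46 (SE 0.14, adjusted p = 1, limma). Cdkn3, a phosphatase that peaks in dividing cells, was at 9.23 and 9.92 in Ezh2-deficient cells against 10.02 and 10.67 in wild type cells. Its difference was -0.76 (SE 0.61). Cdkn2b and Cdkn3 kept the 2 genotypes apart on these 4 arrays. Of all 8 CDK inhibitors, 3 were higher and 3 lower without overlap. That is 37.5% each way, beside 14% and 17.1% of all genes. Cdkn1a, which encodes p21, differed by -0.11.

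Bmpr1a, a type I receptor for bone morphogenetic proteins (BMPs), was at 8.60 and 8.49 in Ezh2-deficient cells and at 6.16 and 6.02 in wild type cells. It was detected on all 4 arrays and the groups did not overlap. The difference was 2.46 (SE 0.24, 5.48-fold, adjusted p = 0.0334, limma), and a second Bmpr1a probe differed by 2.08. Without background correction the difference was 1.55. Of 27 BMP and TGF-beta pathway genes measured, Bmpr1a alone was called, with the block or without. Of all genes 0.147% were called with the block and 0.0275% without. Genotypes did not overlap for 8 members that were higher and 4 that were lower, or 29.6% and 14.8% of the list, beside 14% and 17.1% of all genes. The median difference over the list was 0.05, against -0.01 over all genes tested.

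Other receptors of the pathway had small values: Bmpr2 differed by 0.37, Tgfbr1 by 0.47 and Tgfbr2 by 0.43. Grem1, a secreted BMP antagonist, was at 5.90 and 5.78 in Ezh2-deficient cells and at 5.28 and 4.90 in wild type cells. The Id genes, which BMP receptors induce, had values on both sides of 0. Id2 was at 11.98 and 12.01 in Ezh2-deficient cells and at 11.66 and 11.51 in wild type cells, Id1 differed by -0.55 and Id3 by -0.14. None of these passed the test.

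Igf2bp3, a fetal RNA-binding protein that is largely silent in adult tissue, was at 10.66 and 10.89 in Ezh2-deficient cells and at 7.38 and 7.84 in wild type cells. Its difference of 3.17 (SE 0.38, 8.98-fold) was the largest positive difference on these arrays. It had an adjusted p of 0.0949 without the block and of 0.00437 with it (limma). Igf2bp3 also helped decide which arrays entered, so these p-values are no independent support. With all 12 arrays as labelled its difference was 0.97. The other 4 detected probes of the gene gave 3.18, 2.46, 1.89 and 0.25. Only 4 of 19 fetal and imprinted growth genes were measured. Grb10, an imprinted adaptor of growth factor receptors, was at 6.79 and 8.61 in Ezh2-deficient cells against 6.12 and 8.10 in wild type cells, where array number moved it more than genotype.

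Cd3g, a chain of the CD3 complex that couples the T cell receptor to its signal, was at 10.97 and 11.49 in Ezh2-deficient cells and at 8.08 and 8.37 in wild type cells. It was detected in both genotypes and the groups did not overlap. The difference was 3.003 (SE 0.26, 8.02-fold, adjusted p = 0.0177, limma). The other CD3 chains had differences of 0.41 and -0.36. Cd3d was at 7.22 and 8.21 in Ezh2-deficient cells and at 6.87 and 7.75 in wild type cells. Cd3e was at 5.12 and 4.77 in Ezh2-deficient cells and at 5.39 and 5.20 in wild type cells.

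Of 11 T cell receptor genes measured, Cd3g alone was called, beside 0.0275% of all genes without the block and 0.147% with it. Cd247, Cd4, Cd5, Cd8a, Ptprcap and Trat1 were not detected on the 4 arrays. The summed linear level of the 12 measured T and NK cell markers was 11924 to 13626 in Ezh2-deficient cells and 9263 to 9924 in wild type cells. Without Cd3g the sum over the other 11 was 9917 to 10754 in Ezh2-deficient cells and 8932 to 9652 in wild type cells. The part of T or NK cells in the Cd3g difference was not tested. In RNA from a whole culture, more cells of a type and more RNA per cell cannot be told apart.

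The starts of these 4 genes are shown because they are the largest rises, and because their sequence differs widely in CG dinucleotides, the feature that often marks Polycomb-bound promoters. Each stretch holds 250 bases before and 50 after the annotated start, from RefSeq on build GRCm38.p6, read 5′ to 3′ on the gene's strand, with every CG in capitals. No histone mark or binding was measured here, and the letters are a description only. Cdkn2a has 2 starts in the table, both on the minus strand of chromosome 4.

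Cdkn2a, chr4:89294570-89294869, minus strand: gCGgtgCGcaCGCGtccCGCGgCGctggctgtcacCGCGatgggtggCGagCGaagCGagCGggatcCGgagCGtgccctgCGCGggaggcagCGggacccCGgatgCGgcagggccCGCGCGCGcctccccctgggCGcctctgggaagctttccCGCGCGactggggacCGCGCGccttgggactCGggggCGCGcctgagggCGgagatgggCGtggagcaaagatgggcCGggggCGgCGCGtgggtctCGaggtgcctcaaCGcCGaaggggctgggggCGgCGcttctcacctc
Cdkn2a, chr4:89282143-89282442, minus strand: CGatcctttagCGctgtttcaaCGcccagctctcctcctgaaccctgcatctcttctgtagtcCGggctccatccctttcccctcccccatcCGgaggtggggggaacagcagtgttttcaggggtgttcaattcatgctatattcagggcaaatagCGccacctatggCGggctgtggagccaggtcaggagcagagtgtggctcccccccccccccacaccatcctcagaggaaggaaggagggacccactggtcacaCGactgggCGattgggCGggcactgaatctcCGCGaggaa
Bmpr1a, chr14:34502497-34502796, minus strand: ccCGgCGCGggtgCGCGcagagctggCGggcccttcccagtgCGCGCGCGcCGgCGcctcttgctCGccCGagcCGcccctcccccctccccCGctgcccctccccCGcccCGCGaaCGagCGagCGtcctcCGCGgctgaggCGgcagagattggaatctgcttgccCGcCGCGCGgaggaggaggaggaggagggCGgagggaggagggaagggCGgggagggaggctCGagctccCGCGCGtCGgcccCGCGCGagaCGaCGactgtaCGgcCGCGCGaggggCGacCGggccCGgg
Igf2bp3, chr6:49214905-49215204, minus strand: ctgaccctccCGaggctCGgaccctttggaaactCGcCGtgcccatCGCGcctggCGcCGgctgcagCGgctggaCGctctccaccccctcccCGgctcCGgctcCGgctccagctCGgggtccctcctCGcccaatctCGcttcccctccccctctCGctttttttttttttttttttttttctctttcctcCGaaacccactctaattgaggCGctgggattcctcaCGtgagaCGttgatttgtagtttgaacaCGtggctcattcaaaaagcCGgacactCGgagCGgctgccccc
Cd3g, chr9:44980382-44980681, minus strand: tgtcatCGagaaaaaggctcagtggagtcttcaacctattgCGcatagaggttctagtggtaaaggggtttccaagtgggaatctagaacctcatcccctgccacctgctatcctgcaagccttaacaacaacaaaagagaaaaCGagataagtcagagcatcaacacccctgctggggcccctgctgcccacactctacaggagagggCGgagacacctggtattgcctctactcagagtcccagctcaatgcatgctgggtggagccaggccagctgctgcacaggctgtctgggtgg

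CG reads the same on both strands, and the median over 32851 promoters of this length was 7. The Bmpr1a window held 48, a number that 1.22% of all promoters reach. The upstream Cdkn2a window held 45, reached by 1.93%, and the downstream one 12, reached by 39.6%. The Igf2bp3 window held 25, reached by 18.4%. The Cd3g window held 4, which 68.6% of promoters reach, so the 4 largest rises do not share a CG-rich start. Of the 16 genes called with the block, 10 had an entry in the table.

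Retreg1, a receptor for autophagy of the endoplasmic reticulum, was at 11.55 and 11.70 in Ezh2-deficient cells and at 10.70 and 10.77 in wild type cells. The spread within each genotype was far smaller than the difference of 0.89 (SE 0.14), which was called with the block (adjusted p = 0.0392, limma). Ppp1r1a, an inhibitor of protein phosphatase 1, was at 9.29 and 9.97 in Ezh2-deficient cells and at 7.88 and 8.36 in wild type cells. Its difference of 1.51 (SE 0.30) also passed with the block only.

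Among the genes that were lower with the block, Cbln1, a secreted synapse organizer of the C1q superfamily, was at 5.04 and 5.05 in Ezh2-deficient cells and at 8.16 and 8.01 in wild type cells. It was detected on neither Ezh2-deficient array. After background correction its level was at least 7.76-fold lower there, a bound that holds on that scale only. The fitted difference was -3.04 (SE 0.38), with an adjusted p of 0.108 without the block and of 0.0109 with it (limma). Without background correction it was -1.58. Thy1, a surface glycoprotein of T cells and of stromal cells, was at 6.90 and 5.74 in Ezh2-deficient cells and at 8.99 and 8.55 in wild type cells. Its difference of -2.45 (SE 0.38) had an adjusted p of 0.0362 with the block (limma). Thy1 and Cd3g are both T cell markers, and with the block they were called in opposite directions.

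The genes of complement C1q, which macrophages and immature dendritic cells make, had lower values in Ezh2-deficient cells. C1qa was at 5.68 and 6.29 in Ezh2-deficient cells and at 7.80 and 8.14 in wild type cells. C1qb was at 9.42 and 10.54 in Ezh2-deficient cells and at 11.80 and 12.00 in wild type cells. C1qc was at 8.28 and 9.38 in Ezh2-deficient cells and at 10.70 and 10.89 in wild type cells. The genotypes did not overlap for any of the 3 chains, whose differences were -1.98, -1.91 and -1.96. C1qa alone was called, with the block (adjusted p = 0.0392, limma). The values for C1qb and C1qc with the block were adjusted p = 0.332 and 0.466.

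The macrophage list as a whole was evenly divided. Over 20 measured macrophage markers the median difference was 0.01, with 10 members above 0 and 10 below. Their summed linear level was 160184 to 201992 in Ezh2-deficient cells and 162624 to 207294 in wild type cells. Apoe, a lipid carrier of macrophages, was at 8.53 and 7.34 in Ezh2-deficient cells against 7.72 and 6.06 in wild type cells. Arg1, which breaks down arginine, was at 7.65 and 9.26 in Ezh2-deficient cells against 9.66 and 9.25 in wild type cells.

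Saa3, an acute phase protein that macrophages secrete, was at 7.64 and 7.36 in Ezh2-deficient cells and at 10.03 and 8.86 in wild type cells. Its difference of -1.95 (SE 0.35) was called with the block (adjusted p = 0.0241, limma). Saa3 was the only member called among 33 measured inflammatory cytokines and mediators, beside 0.0275% of all genes without the block and 0.147% with it. Il6 was at 5.17 and 5.52 in Ezh2-deficient cells and at 6.45 and 6.02 in wild type cells, a difference of -0.89 (SE 0.24), or -0.35 without background correction. Across the list 9 members were lower without overlap and 3 higher, or 27.3% and 9.09%, beside 17.1% and 14% of all genes, and the median difference was -0.10.

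The other lower genes have varied roles. The kinase Ripk4, known from epidermal differentiation, was at 5.87 and 6.35 in Ezh2-deficient cells and at 7.64 and 7.99 in wild type cells. The scavenger receptor gene Scarf1 was at 6.95 and 6.59 in Ezh2-deficient cells and at 8.29 and 7.78 in wild type cells. The genotypes did not overlap at either gene, and both passed with the block (adjusted p = 0.0241 and 0.0392, limma). Ly6c1 was at 10.37 and 9.49 in Ezh2-deficient cells against 11.97 and 11.04 in wild type cells, and the glutathione transferase Gstm2 at 10.53 and 10.17 in Ezh2-deficient cells against 11.81 and 11.14 in wild type cells. Both belong to families of near-identical copies, and which copy was read is uncertain.

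For Fcmr, a receptor for IgM, the array number moved the level as much as genotype did. It was at 6.49 and 8.08 in Ezh2-deficient cells and at 7.95 and 9.42 in wild type cells. Ndrg2, a stress response gene, was at 6.06 and 7.56 in Ezh2-deficient cells and at 7.77 and 9.01 in wild type cells. Within each number both genes were lower in Ezh2-deficient cells, with differences of -1.45 and -1.34 for Fcmr and of -1.71 and -1.45 for Ndrg2. Both differences were called with the block and had adjusted p = 1 without it (limma). Leaving out 1 of the 4 arrays gave -2.19 to -0.61 for Fcmr and -2.33 to -0.83 for Ndrg2.

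**Figure D2:**
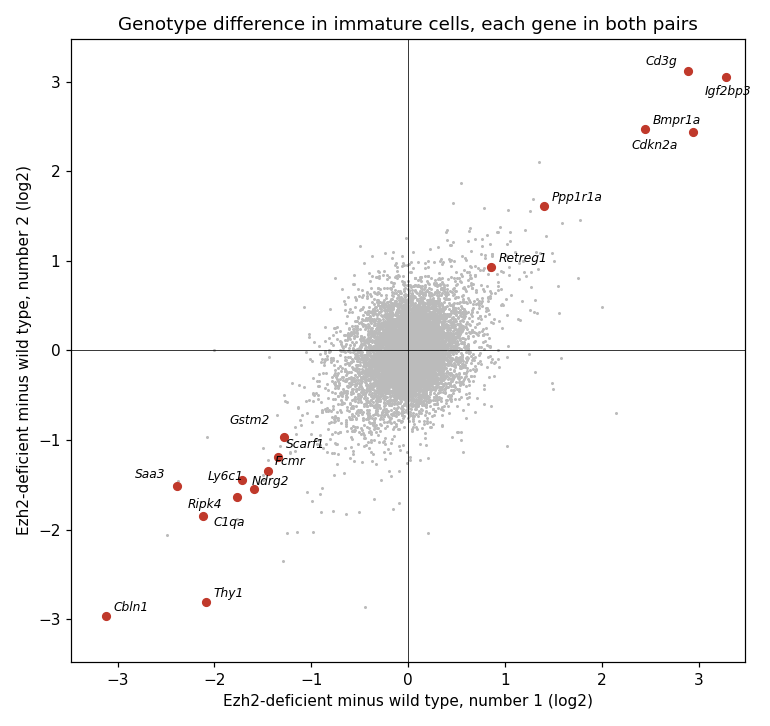
Difference between Ezh2-deficient and wild type immature cells on the log2 scale for 10908 genes, in the arrays numbered 1 (horizontal axis) and in the arrays numbered 2 (vertical axis). Grey points are all genes and red points the 16 genes called without or with the replicate block, which all lie at the upper right or lower left, where both numbers have the same sign. Other genes lie as far out without being called.

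Over all 10908 genes the differences within number 1 and within number 2 had the same sign for 57.8% of genes. Their correlation across genes was 0.392, which describes the arrays and not independent replicates. Genes with large differences that did not pass the test were also named by size. Neo1, a netrin receptor that also takes part in BMP signalling, was at 6.33 and 7.04 in Ezh2-deficient cells and at 4.98 and 4.93 in wild type cells, but its other 2 detected probes differed by 0.16 and 0.20, and without background correction the difference was 0.72. Ryk, a Wnt receptor, was at 7.45 and 7.70 in Ezh2-deficient cells and at 5.68 and 6.24 in wild type cells, a difference of 1.61 that was 0.88 without background correction. The adhesion molecule Ncam1 was at 7.39 and 7.89 in Ezh2-deficient cells and at 6.13 and 6.33 in wild type cells, and a second probe differed by 0.04.

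Further positive differences that did not pass the test were 1.51 for the scavenger receptor Scara3, 1.35 for Fam135a and 1.16 for Unc13b, which primes vesicles for release. The kinase Dclk3 was at 8.10 and 7.27 in Ezh2-deficient cells and at 7.07 and 5.70 in wild type cells, and its difference of 1.30 lay between 0.61 and 1.98 when 1 of the 4 arrays was left out. The lower genes by size included Klk1b1 at 7.90 and 9.10 in Ezh2-deficient cells against 10.39 and 11.17 in wild type cells. Klk1b21, of the same kallikrein family, was at 6.22 and 6.86 in Ezh2-deficient cells against 7.96 and 8.30 in wild type cells. The 2 kallikreins are near-identical in sequence and may share signal. Dmrta2 and Insm1, both transcription factors of neural development, differed by -1.64 and -1.58. For Dmrta2, at 5.78 and 6.32 in Ezh2-deficient cells and at 7.03 and 8.36 in wild type cells, leaving out 1 array gave -2.31 to -0.98.

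The Polycomb subunits gave no called gene, beside 0.0275% of all genes called without the block and 0.147% with it. Over 12 PRC2 subunits and H3K27 demethylases the median difference was -0.04. Eed, the subunit that binds the methyl mark, was at 9.89 and 10.29 in Ezh2-deficient cells and at 9.86 and 10.26 in wild type cells. Suz12, the scaffold of the complex, was at 12.05 and 11.93 in Ezh2-deficient cells and at 12.08 and 11.96 in wild type cells. Ezh1, the paralog that can replace Ezh2 in part, was at 5.14 and 5.21 in Ezh2-deficient cells and at 5.47 and 5.30 in wild type cells. The largest positive difference in the list was 0.37, for Jarid2, which was not detected in wild type cells. The largest negative one was -0.53, for Rbbp4. Without overlap, 4 members were lower and 1 higher, or 33.3% and 8.33%, beside 17.1% and 14% of all genes. No member passed the test.

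Of 18 PRC1 subunits, Bmi1 had a value far from the others. It was at 8.81 and 8.65 in Ezh2-deficient cells and at 7.52 and 6.96 in wild type cells, without overlap. Its difference of 1.49 (SE 0.24) had an adjusted p of 0.312 without the block and of 0.0856 with it (limma). Bmi1 is known to repress the Cdkn2a locus, and both genes were high on the same 2 arrays. The catalytic subunit Rnf2 differed by 0.37 and Cbx2 by -0.56. Of 68 developmental transcription factors, which PRC2 holds silent in many lineages, 7 were measured, and Irx3 (0.59, not detected in wild type cells) and Snai1 (0.40) had the largest values, neither called.

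Genes of mitosis had lower values in Ezh2-deficient immature cells on arrays 1 and 2, although none was called without or with the block. Of all genes 0.0275% were called without the block and 0.147% with it. Of 33 measured members, 32 had a difference below 0 and 1 above 0, beside 52.8% and 47.2% of all genes. Of the list, 26 members were lower without overlap, or 78.8%, beside 17.1% of all genes. The median difference was -0.56, with -0.61 within number 1 and -0.46 within number 2, against -0.01 over all genes. The mean log2 level of the list was 8.56 and 8.58 in Ezh2-deficient cells and 9.13 and 9.04 in wild type cells. Its summed linear level was 27049 to 29833 in Ezh2-deficient cells and 41587 to 42707 in wild type cells.

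Prc1, which bundles microtubules at the cell midzone, was at 11.49 and 11.32 in Ezh2-deficient cells and at 12.35 and 11.98 in wild type cells. The mitotic kinase Plk1 was at 9.51 and 9.74 in Ezh2-deficient cells and at 10.35 and 10.38 in wild type cells. Cdk1, the kinase that starts mitosis, was at 9.29 and 9.04 in Ezh2-deficient cells and at 9.88 and 9.69 in wild type cells. The kinesin Kif2c was at 8.32 and 8.35 in Ezh2-deficient cells and at 9.26 and 9.08 in wild type cells. Each of the 4 kept the genotypes apart, and each had an adjusted p of 1 without the block (limma). The median absolute difference between numbers 1 and 2 over the list was 0.24 in each immature genotype, and 0.94 in Ezh2-deficient and 0.67 in wild type mature cells, whose arrays share the estimate of the spread.

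A fit of the 4 immature arrays alone with the number as a block, chosen after the data were seen, left 1 residual degree of freedom among samples. It called 247 genes higher and 304 lower, 2.26% and 2.79% of those tested. Of the 33 mitosis genes it called 22 lower and 0 higher. The array labelled Ezh2-deficient immature 3 had a mean mitosis level of 9.17, nearer the wild type arrays 1 and 2 than the Ezh2-deficient ones. The other arrays labelled number 3 were at 6.68 (wild type immature), 6.39 (Ezh2-deficient mature) and 8.87 (wild type mature). The last value lay between the immature genotypes of numbers 1 and 2, nearer the wild type. With all 12 arrays as labelled, the list's median difference was 0.58. That fit includes the array labelled wild type immature 3. Its mitosis level lay within the 6.15 to 6.96 of the mature arrays numbered 1 and 2.

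**Figure D3:**
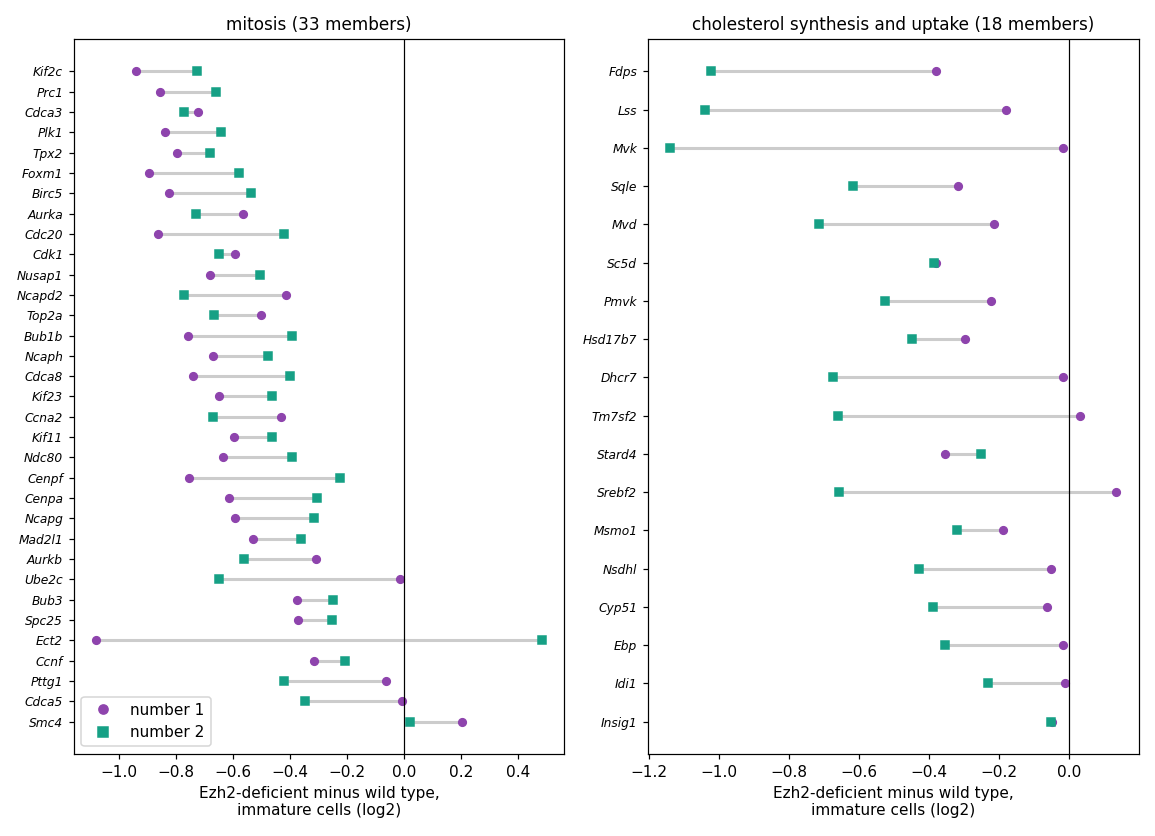
Ezh2-deficient minus wild type difference on the log2 scale for every measured gene of mitosis (left) and of cholesterol synthesis and uptake (right), with circles for the arrays numbered 1 and squares for those numbered 2. Nearly all mitosis genes lie below 0 in both numbers, while the cholesterol genes lie further below 0 in number 2.

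DNA replication genes had smaller values. Of 33 measured, 30 lay below 0, or 90.9% beside 52.8% of all genes, and 11 were lower without overlap, or 33.3% beside 17.1%, with a median difference of -0.26. The mean level was 8.96 and 8.48 in Ezh2-deficient cells and 9.02 and 8.91 in wild type cells, so the second Ezh2-deficient array stood below the other 3. Without that array the median was -0.02. Tk1, a thymidine kinase of S phase, was the only replication gene called in the fit of the 4 immature arrays with the block. That is 1 of 33 called lower, in a fit that called 2.79% of all genes lower and 2.26% higher.

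All 18 measured genes of cholesterol synthesis and uptake had values below 0, and 12 were lower without overlap, or 66.7% beside 17.1% of all genes. None was called, beside 0.0275% of all genes without the block and 0.147% with it. The median was -0.33, with -0.12 within number 1 and -0.49 within number 2. Fdps, which makes farnesyl pyrophosphate, was at 11.88 and 11.56 in Ezh2-deficient cells and at 12.26 and 12.58 in wild type cells. Squalene epoxidase, Sqle, was at 11.91 and 11.60 in Ezh2-deficient cells and at 12.23 and 12.22 in wild type cells. Lss, which closes the sterol rings, was at 9.19 and 8.74 in Ezh2-deficient cells and at 9.37 and 9.78 in wild type cells. With all 12 arrays as labelled the median was 0.14. That fit includes the array labelled wild type immature 3, where the mean level of the list was 8.28. On the mature arrays numbered 1 and 2 it was 8.29 to 8.67.

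Interferon response genes leaned lower, with 30 of 38 below 0 and 18 lower without overlap, or 47.4% of the list beside 17.1% of all genes. The median was -0.22 and none was called, beside 0.0275% of all genes without the block and 0.147% with it. Irf7, a transcription factor that amplifies interferon production, was at 5.21 and 5.38 in Ezh2-deficient cells and at 6.00 and 6.53 in wild type cells. Oas2, an antiviral sensor, was at 5.64 and 5.75 in Ezh2-deficient cells and at 6.82 and 6.88 in wild type cells. The guanylate-binding protein genes Gbp2 and Gbp3 had values of 0.40 and 0.48, on the other side of 0. Of 16 glycolysis genes, 14 lay below 0 (87.5%, beside 52.8% of all genes), with a median of -0.15.

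**Figure D4:**
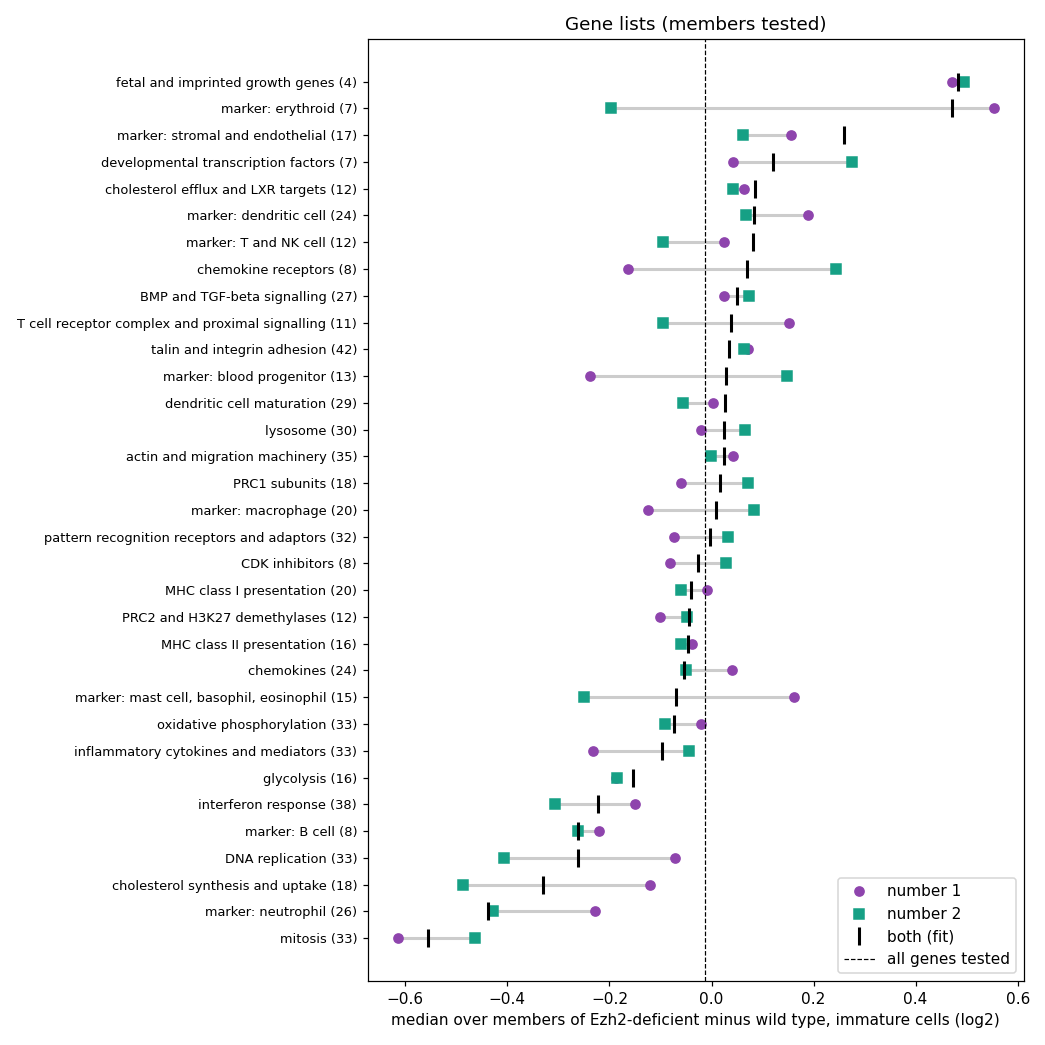
Median difference between Ezh2-deficient and wild type immature cells (log2, horizontal axis) over the measured members of each of 33 gene lists, with the number measured in brackets. Circles are the arrays numbered 1, squares those numbered 2, black bars the fit over both, and the dashed line the median of all genes tested. Mitosis lies lowest at -0.56.

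The genes closest to the series title showed little difference in RNA level, which does not read methylation of the talin protein. Tln1, which encodes talin 1, was at 6.15 and 6.09 in Ezh2-deficient cells and at 6.16 and 6.02 in wild type cells. Tln2, detected on 3 of the 4 arrays, was at 5.25 and 5.55 in Ezh2-deficient cells and at 4.81 and 5.39 in wild type cells. The lowest detected values on these arrays were 5.11 to 5.16, so both talin genes were dim. Vav1, a signalling protein of blood cells, was at 11.91 and 11.61 in Ezh2-deficient cells and at 11.88 and 11.79 in wild type cells. The groups overlapped for all 3, with SEs of 0.21, 0.42 and 0.19. Over 42 genes of talin and integrin adhesion none was called, beside 0.0275% of all genes without the block and 0.147% with it. The median was 0.03, and 10 were higher and 4 lower without overlap, or 23.8% and 9.52%, beside 14% and 17.1% of all genes. The laminin receptor chain Itga6 was at 5.27 and 4.97 in Ezh2-deficient cells and at 6.03 and 5.70 in wild type cells, a difference of -0.74 (SE 0.24, adjusted p = 1, limma). Over 35 genes of actin and migration the median was 0.02.

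Antigen presentation and maturation genes had medians close to that of all genes. The median was -0.05 over 16 MHC class II genes, -0.04 over 20 MHC class I genes and 0.03 over 29 maturation genes. None was called, beside 0.0275% of all genes without the block and 0.147% with it. Slamf1, a surface receptor of activated cells, was at 7.06 and 7.19 in Ezh2-deficient cells and at 7.54 and 8.13 in wild type cells. Nfkbie, an inhibitor of NF-kB, differed by -0.37. Among dendritic cell markers the median was 0.08, and Clec9a, a marker of cross-presenting dendritic cells, was at 8.002 and 6.83 in Ezh2-deficient cells against 7.38 and 5.50 in wild type cells.

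Chemokines and their receptors gave no called gene, beside 0.0275% of all genes called without the block and 0.147% with it. Xcl1, which attracts cross-presenting dendritic cells, was at 6.79 and 5.30 in Ezh2-deficient cells and was not detected in wild type cells. Ccl4 differed by -0.49. The receptor Cxcr2 was at 5.96 and 6.09 in Ezh2-deficient cells and at 6.74 and 7.88 in wild type cells, a difference of -1.28 that lay between -1.86 and -0.71 when 1 array was left out. Of lipid and lysosome genes, the nuclear receptor Pparg was at 8.42 and 8.53 in Ezh2-deficient cells and at 7.91 and 7.79 in wild type cells. Fasn, fatty acid synthase, was at 5.75 and 6.08 in Ezh2-deficient cells and at 5.14 and 5.36 in wild type cells. The protease Ctsa was at 10.98 and 10.41 in Ezh2-deficient cells and at 10.06 and 9.08 in wild type cells at its brightest probe. Its difference of 1.12 there lay between 0.64 and 1.61 when 1 array was left out, and its other 3 probes gave 0.16 to 0.35.

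Markers of other cells in the culture were read from the same arrays. Over 26 neutrophil markers the median difference was -0.44, yet the summed linear level was 19208 to 44225 in Ezh2-deficient cells and 24912 to 50654 in wild type cells, so the genotypes overlapped. Number 1 was higher than number 2 in both genotypes. Within each number the sum was lower in Ezh2-deficient cells, at 44225 against 50654 and at 19208 against 24912. The median difference was -0.23 within number 1 and -0.43 within number 2. Without the second Ezh2-deficient array the median was 0.19, and without the first wild type array 0.13. Both leave a number with 1 genotype only, so the array number enters those medians. Stfa2, a stefin of neutrophils with near-identical copies, was at 12.06 and 11.83 in Ezh2-deficient cells and at 11.20 and 10.78 in wild type cells. The neutrophil calprotectin gene S100a9 was at 12.56 and 9.84 in Ezh2-deficient cells and at 13.07 and 11.65 in wild type cells.

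Stromal and endothelial markers had a median of 0.26 over 17 genes and went both ways: 7 were higher and 5 lower without overlap, or 41.2% and 29.4%, beside 14% and 17.1% of all genes. Dcn, which encodes decorin, was at 9.41 and 8.60 in Ezh2-deficient cells and at 7.65 and 7.80 in wild type cells. Col6a1 was at 8.14 and 7.39 in Ezh2-deficient cells and at 6.59 and 6.98 in wild type cells. Thy1, with its difference of -2.45, also belongs to this list. The endothelial adhesion molecule Esam, chosen after its values were seen, was at 6.27 and 6.05 in Ezh2-deficient cells and at 6.99 and 6.96 in wild type cells. Col3a1, Lum, Pdgfrb and Postn were not detected on the 4 arrays. The summed linear level of these markers was 20556 to 23249 in Ezh2-deficient cells and 18724 to 19917 in wild type cells. Hdc, which makes histamine in mast cells and basophils, was at 8.53 and 8.06 in Ezh2-deficient cells and at 9.30 and 9.20 in wild type cells. Cpa3, a mast cell protease chosen after its values were seen, was at 9.36 and 8.82 in Ezh2-deficient cells and at 8.92 and 7.99 in wild type cells. In the fit of the 4 immature arrays with the block, Cpa3 was the only member of its list called higher. That fit called 5 members lower, Mcpt8, Fcer1a, Hdc, Prss34 and Prg2. Of all genes it called 2.26% higher and 2.79% lower. Of the 15 measured mast cell, basophil and eosinophil markers, 6 lay above 0 and 9 below, with a median of -0.07, and of 0.16 within number 1 and -0.25 within number 2. Their summed level was 7217 to 8048 in Ezh2-deficient cells and 8349 to 8643 in wild type cells, with 13 further markers, among them Mcpt4 and Siglecf, undetected. The part of these cells in the differences above was not tested. The progenitor genes Cd34 (6.55 and 6.78 in Ezh2-deficient cells, 5.58 and 6.26 in wild type cells) and Tal1 (6.19 and 5.78 in Ezh2-deficient cells, 6.83 and 7.61 in wild type cells) had opposite signs.

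LPS-treated arrays 1 and 2 allowed a test of whether the genotype difference itself differed between stages. None of 10908 genes passed it (0% called, limma), and 169 had an unadjusted p under 0.05. In mature cells the genotype difference was 2.65 for Cdkn2a, 2.71 for Bmpr1a, 3.13 for Igf2bp3 and -3.01 for Cbln1. These lie close to the immature values of 2.69, 2.46, 3.17 and -3.04. Cdkn2a and Igf2bp3 also set apart the mature arrays numbered 3, so the likeness of stages at those genes is no independent support. For Cd3g the mature difference was 0.44, where the gene was detected on none of the 4 arrays, and the stage difference of 2.57 had an unadjusted p of 0.000123 and an adjusted p of 1. Ppp1r1a differed by 1.51 in immature and 0.50 in mature cells. C1qa was likewise not detected in mature cells. Saa3 was at 15.36 and 15.00 in Ezh2-deficient and at 15.50 and 15.28 in wild type mature cells, a difference of -0.21. The mitosis list had a median of -0.18 in mature cells.

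At Cdkn2a and Igf2bp3 all 4 arrays numbered 3 went against their genotype label. At Cdkn2a the array labelled Ezh2-deficient immature 3 was at 4.70 and the array labelled wild type immature 3 at 8.08, and at Igf2bp3 they were at 7.11 and 10.54. The array labelled Ezh2-deficient mature 3 was at 4.57 and 7.33 for those genes, and that labelled wild type mature 3 at 7.63 and 10.88. Il6, which LPS induces, was at 5.90 on the array labelled Ezh2-deficient immature 3 and at 12.08 on that labelled Ezh2-deficient mature 3, so both had the level of their labelled stage. For the arrays labelled wild type 3 it was at 11.99 (immature) and 4.93 (mature), each at the level of the other stage. Over all genes tested, the array labelled wild type immature 3 correlated at 0.983 and 0.975 with wild type mature arrays 1 and 2. With wild type immature arrays 1 and 2 it correlated at 0.889 and 0.879. The array labelled wild type mature 3 correlated at 0.897 and 0.902 with wild type mature arrays 1 and 2. With the wild type immature ones it correlated at 0.987 and 0.981.

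Bmpr1a and Cbln1 did not set the arrays apart, and their genotype differences were of like size in both stages on numbers 1 and 2. Bmpr1a was at 6.12 on the array labelled Ezh2-deficient immature 3 and at 8.92 on that labelled wild type immature 3. Its values on the mature arrays were 6.68 on that labelled Ezh2-deficient 3 and 8.72 on that labelled wild type 3. Cbln1 was at 8.17 and 5.14 on the immature arrays labelled Ezh2-deficient 3 and wild type 3, and at 8.31 and 4.79 on the mature ones. At both genes each number 3 array was nearer the other genotype of numbers 1 and 2 than its own. At the 14 called genes other than Cdkn2a and Igf2bp3, the array labelled Ezh2-deficient immature 3 was nearer the mean of the wild type immature arrays 1 and 2 at all 14. The array labelled wild type immature 3 was not scored in this way. As labelled, the immature number 3 difference had the sign of numbers 1 and 2 at Cd3g (3.26), Ppp1r1a (2.48) and Saa3 (-5.46). It also did at Fcmr (-2.5), Ly6c1 (-1.41), Ndrg2 (-1.03) and Gstm2 (-0.21), and had the other sign at the remaining called genes. The array labelled wild type immature 3 was at 4.71 for Cd3g and 15.49 for Saa3. On the mature arrays 1 and 2 Cd3g was not detected and Saa3 lay between 15.00 and 15.50. The array labelled Ezh2-deficient immature 3 was at 7.97 for Cd3g, beside 8.08 and 8.37 on wild type immature arrays 1 and 2. Across all genes, the number 3 difference as labelled correlated at -0.02 with number 1 and at -0.08 with number 2. The labels were kept, no array was moved to another group, and what set number 3 apart was not tested.

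**Figure D5:**
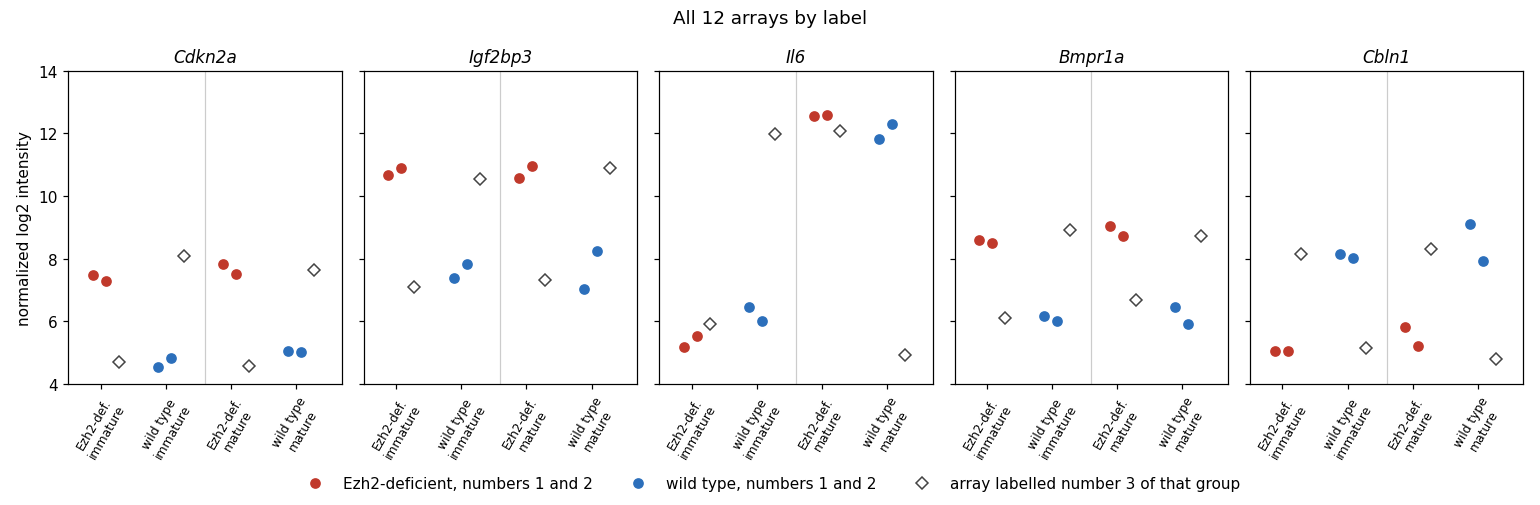
Normalized log2 intensity (vertical axis) of 5 genes on all 12 arrays, by labelled genotype and stage. Filled points are arrays 1 and 2 of each group and open diamonds the array labelled number 3. At Cdkn2a, Igf2bp3, Bmpr1a and Cbln1 the diamonds lie by the other genotype, and at Il6 the 2 diamonds labelled wild type lie by the other stage.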

How the data were processed

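RNA of 12 bead arrays was analysed. Per the file headers, the authors deposited the mean intensity of 45281 probes on each array, with a detection p-value. The authors also deposited log2 values, found here to be quantile-normalized intensities with no background correction. The submitters' processing notes name BeadStudio, limma and R 2.15.2 without roles. Here the intensities were processed with neqc (limma 3.58.1, R 4.3.3, offset 16). A probe was kept if its detection p was under 0.05 on 3 or more arrays, and the brightest probe stood for each of 10908 genes. Of the probes, 34885 had 1 gene symbol, 18 several and 10378 none.

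Group means of 8 arrays (numbers 1 and 2) were fitted with limma (eBayes with an intensity trend), without and with the number as a block. P-values were two-sided, with Benjamini-Hochberg adjustment over all genes, and called means an adjusted p under 0.05. A bound on a fold sets undetected arrays at their lowest detected value on the background-corrected scale. Named genes were all called genes, the 12 largest differences each way among non-overlapping genes with an unadjusted p under 0.05, up to 2 members above and 2 below in each of 33 lists, and a set of Polycomb, adhesion and locus genes. The lists name 906 symbols (903 found among gene names, 650 tested). Members, lists and tests were chosen with earlier results of these data known. The number of arrays limits the precision.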

Additional observations from a re-analysis of the deposited data

Results flagged for a closer look

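At 5 named genes the Ezh2-deficient minus wild type difference had opposite signs in immature and mature cells within each of numbers 1 and 2. For Il6 it was -0.89 in immature and 0.50 in mature cells, and for Fasn 0.67 in immature and -0.41 in mature cells. For Kdm6b, an H3K27 demethylase, it was -0.46 in immature and 0.19 in mature cells. Ezh1 had -0.21 in immature and 0.05 in mature cells, and Suz12 -0.03 in immature and 0.16 in mature cells. The test of the difference between stages gave unadjusted p-values of 0.00377 for Il6, 0.00726 for Fasn, 0.0689 for Kdm6b, 0.474 for Ezh1 and 0.439 for Suz12 (limma), and each had an adjusted p of 1, so none passed. Il6 was among the genes that set number 3 apart, and its values are a description.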

How the results depend on the processing

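The 3 genes called in the immature comparison became 16 with the replicate block, 5 with only the 4 immature arrays, 4 with quantile normalization without background correction, 4 with the deposited values, 4 with no filter on dim probes, 3 under each of 3 further settings (normalization over 8 arrays, a filter on immature arrays, no intensity trend) and 2 with the mean of probes. They became 0 with all 12 arrays as labelled, without or with the block. Leaving out any immature array gave 0 to 0 calls. The block with quantile normalization alone or with the deposited values gave 18 each, and with only the 4 immature arrays 551; these 3 were chosen after seeing the data. The stage difference gave 0 calls under every setting run for it, with 139 to 518 genes at an unadjusted p under 0.05 (limma). Numbers 1 and 2 may pair the arrays: their difference correlated across genes at 0.551 between the immature genotypes, 0.717 between the mature ones and 0.218 to 0.311 across stages, but the labels do not say what a number marks.

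With all 12 arrays as labelled, the sign turned for Klk1b1 (0.13), C1qc (0.65), C1qb (0.64), Klk1b21 (0.048), Cdkn2b (-0.60), Id2 (-0.0052), Prc1 (0.40), Sqle (0.24), Mvd (0.15), Ctsa (-0.11), Eed (-0.20) and Tln2 (-0.043), with the same values under the block. Those fits include the array labelled wild type immature 3, which correlated more with the mature than with the immature arrays numbered 1 and 2. Kdm6a turned to 0.027 with the mean of probes. When arrays were left out, values from -0.14 to 0.058 were seen for Kdm6a, -0.17 to 0.23 for Eed, -0.0895 to 0.032 for Suz12, -0.22 to 0.0755 for Vav1 and -0.035 to 0.10 for Tln1. The cause was not tested. Signal near background limits Cdkn2a and Cbln1, each undetected in a genotype, and other dim genes. Without background correction the difference was smaller by over 1.5 times at 8 of 16 called genes and at 21 of the 50 other named genes, and none of these 66 turned sign. Another 3417 detected probes without a symbol of their own gave 0 calls without or with the block, and 68 had an unadjusted p under 0.05 (limma).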
